A study of Mus musculus with 38 samples.

Results

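The genes described here are 10 genes of the Toll-like receptor system, chosen by name, with earlier results of these data known: the receptors Tlr1, Tlr2, Tlr3, Tlr4, Tlr7, Tlr9 and Tlr13, the co-receptor Cd14, the signaling adaptor Myd88 and the receptor-trafficking protein Unc93b1. They are 10 of 48709 genes counted in hippocampal RNA of 38 mice, and all 10 had enough reads to be tested in every comparison. The mice were wild-type (WT) or APPPS1ΔE9, a line that carries human APP with the Swedish mutation among its transgenes, on a C57BL/6 background. The transgenes are driven by the mouse prion protein promoter. The mice ate chow containing either placebo or anle138b, a diphenylpyrazole that binds oligomers of aggregating proteins. The pre-plaque group was analyzed at 6 months of age, with 4 mice in each combination of genotype and chow. The post-plaque group was analyzed at 10 months, with 5 WT mice on each chow, 5 APPPS1ΔE9 mice on placebo and 7 APPPS1ΔE9 mice on anle138b. Each mouse gave 1 library. Chow was given for the 4 months before analysis, so the group names refer to the start of feeding. The study also counted plaques in APPPS1ΔE9 mice of the pre-plaque group at analysis.

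Toll-like receptors recognize molecules of microbes and of damaged tissue. TLR1, TLR2 and TLR4 act at the cell surface, where CD14 hands ligands to TLR2 and TLR4, while TLR3, TLR7, TLR9 and TLR13 read nucleic acids inside endosomes and depend on UNC93B1 to get there. All of these receptors except TLR3 signal through MYD88 to NF-κB and interferon regulatory factors. In the brain most of them are carried by microglia, the resident macrophages, and fibrillar amyloid β is one of the ligands described for the CD14, TLR2 and TLR4 complex.

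Total counts per library ranged from 15847985 to 31895808, with a median of 24530658. App carried 1516 to 1806 CPM, read counts scaled to library size, in the 18 libraries labelled WT and 3235 to 4316 CPM in the 20 labelled APPPS1ΔE9, which matches the genotype given in every title. The 4 WT mice fed placebo until 6 months are called WT in their titles and APPdelta9 in another label, and their App levels, 1612 to 1781 CPM, lay among those of WT. Xist was high in 12 of 38 libraries, 11 of 18 WT and 1 of 20 APPPS1ΔE9, although the mice are described as male. WT and APPPS1ΔE9 libraries of the post-plaque group ran on different sequencing lanes (3 and 4 against 5 and 6), so lane and genotype cannot be told apart there. The same holds at 6 months within each chow (lane 4 against lane 5 on placebo, lanes 4 and 5 against lane 6 on anle138b). Chow and lane cannot be told apart in APPPS1ΔE9 mice at 6 months (lane 5 for placebo, lane 6 for anle138b), and at 10 months placebo ran on lane 5 and 6 of 7 anle138b libraries on lane 6. In WT mice at 10 months, 4 of 5 placebo libraries ran on lane 3 and all 5 anle138b libraries on lane 4. Tissue content also varied. The summed level of 6 hippocampal markers was 347 to 520 CPM in 9 post-plaque libraries and 695 to 915 CPM in the other 13. That of 5 choroid plexus markers was above 1000 CPM in 10 of 16 pre-plaque libraries and in 1 of 22 post-plaque libraries. The genotype averages and the difference between ages were also fitted without either set of libraries.

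Per kilobase of exon, the levels of the 10 genes spanned more than an order of magnitude. In the 10 WT mice of the post-plaque group, Unc93b1 was highest at 4.80 ± 0.69 RPKM, a read density scaled to exon length and library size (mean ± SD, n = 10). Tlr3 followed at 2.98 ± 0.37, Myd88 at 2.003 ± 0.378 and Cd14 at 1.36 ± 0.39 RPKM. The remaining receptors had 0.863 ± 0.153 (Tlr7), 0.645 ± 0.072 (Tlr13), 0.567 ± 0.134 (Tlr9), 0.407 ± 0.110 (Tlr2), 0.332 ± 0.070 (Tlr4) and 0.201 ± 0.087 RPKM (Tlr1). The ranges over mice did not overlap between Unc93b1 and Tlr3, and they overlapped between all other neighbors in this order. Tlr2 was thus among the 3 lowest members in these mice. In WT mice at 6 months it was higher, at means of 0.729 RPKM on placebo and 0.734 RPKM on anle138b, above those of Tlr13, Tlr9, Tlr4 and Tlr1. Tlr1 rested on 5 to 29 reads per WT library at 10 months, and its low counts limit what a test of it can show.

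RefSeq promoter windows of 6 of the 10 members were examined. Cd14, Tlr4, Tlr7 and Unc93b1 were not among them, so their promoters were not compared. Of the 6, Tlr2 and Tlr13 rose in APPPS1ΔE9 mice at 10 months, and the shared adaptor Myd88 did not pass the test. Stretches of these 3 are shown. Each is the part of the RefSeq promoter window (GRCm38.p6, 250 bases before to 50 after the gene's start) that no annotated exon covers, written 5′ to 3′ on the gene's strand. The RefSeq start of Myd88 used here lies inside the longer gene span of the GENCODE annotation (chr9:119335934-119341411), so its stretch is upstream of the RefSeq start only. Capitals mark matches, on either strand, to the NF-κB consensus, to GAGGAA, the core read by the myeloid factor PU.1 and to the interferon-stimulated response element.
Tlr2, chr3:83841768-83841858, minus strand: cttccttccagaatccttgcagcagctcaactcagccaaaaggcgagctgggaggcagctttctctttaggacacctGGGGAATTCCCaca
Tlr13, chrX:106143025-106143203, plus strand: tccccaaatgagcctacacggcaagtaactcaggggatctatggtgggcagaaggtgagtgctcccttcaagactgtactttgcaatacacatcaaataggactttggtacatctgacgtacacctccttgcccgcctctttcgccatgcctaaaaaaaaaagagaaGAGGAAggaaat
Myd88, chr9:119340042-119340268, minus strand: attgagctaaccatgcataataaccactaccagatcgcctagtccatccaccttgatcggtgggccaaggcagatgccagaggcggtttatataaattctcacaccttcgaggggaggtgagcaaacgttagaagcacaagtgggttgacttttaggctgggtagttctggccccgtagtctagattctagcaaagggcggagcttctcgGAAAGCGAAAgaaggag
The whole 300-base window of Tlr2 held 3 matches to the NF-κB consensus, of which a pair overlap in the capitals above, and this consensus occurred in 8.46% of 32851 RefSeq promoter windows. Tlr13 held 1 GAGGAA, a word present in 28.3% of windows. Myd88 held 1 interferon-stimulated response element, present in 3.44% of windows. Members that did not pass the test held the same words: Tlr3 had 1 match to the NF-κB consensus, Tlr9 had 2 GAGGAA and Tlr1 had 1 GAGGAA in 1 of its 2 windows. These matches describe the letters in the window and say nothing of binding.

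In the post-plaque group, Tlr2 rose in APPPS1ΔE9 mice and had the largest log2 fold change of the 10 members. TLR2 is the cell-surface receptor that recognizes lipoproteins as a dimer with TLR1 or TLR6. The gene lies at chr3:83836272-83841767 (GRCm38). Its levels in placebo-treated WT mice were 1.34, 1.77, 1.39, 1.11 and 1.12 CPM, and in anle138b-treated WT mice 0.726, 0.859, 1.66, 1.02 and 1.26 CPM. Placebo-treated APPPS1ΔE9 mice had 2.25, 2.73, 2.29, 3.98 and 3.56 CPM, and the 7 anle138b-treated APPPS1ΔE9 mice ranged from 2.39 to 4.23 with a median of 3.06 CPM. Every APPPS1ΔE9 mouse lay above every WT mouse on either chow. Averaged over both chows, the log2 fold change was 1.32 ± 0.15 (SE), with 10 WT and 12 APPPS1ΔE9 mice (edgeR quasi-likelihood test, adjusted p = 1.1e-05). Tlr2 was the only member whose genotypes did not overlap, a pattern that 0.396% of the 17668 tested genes showed.

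**Figure D1:**
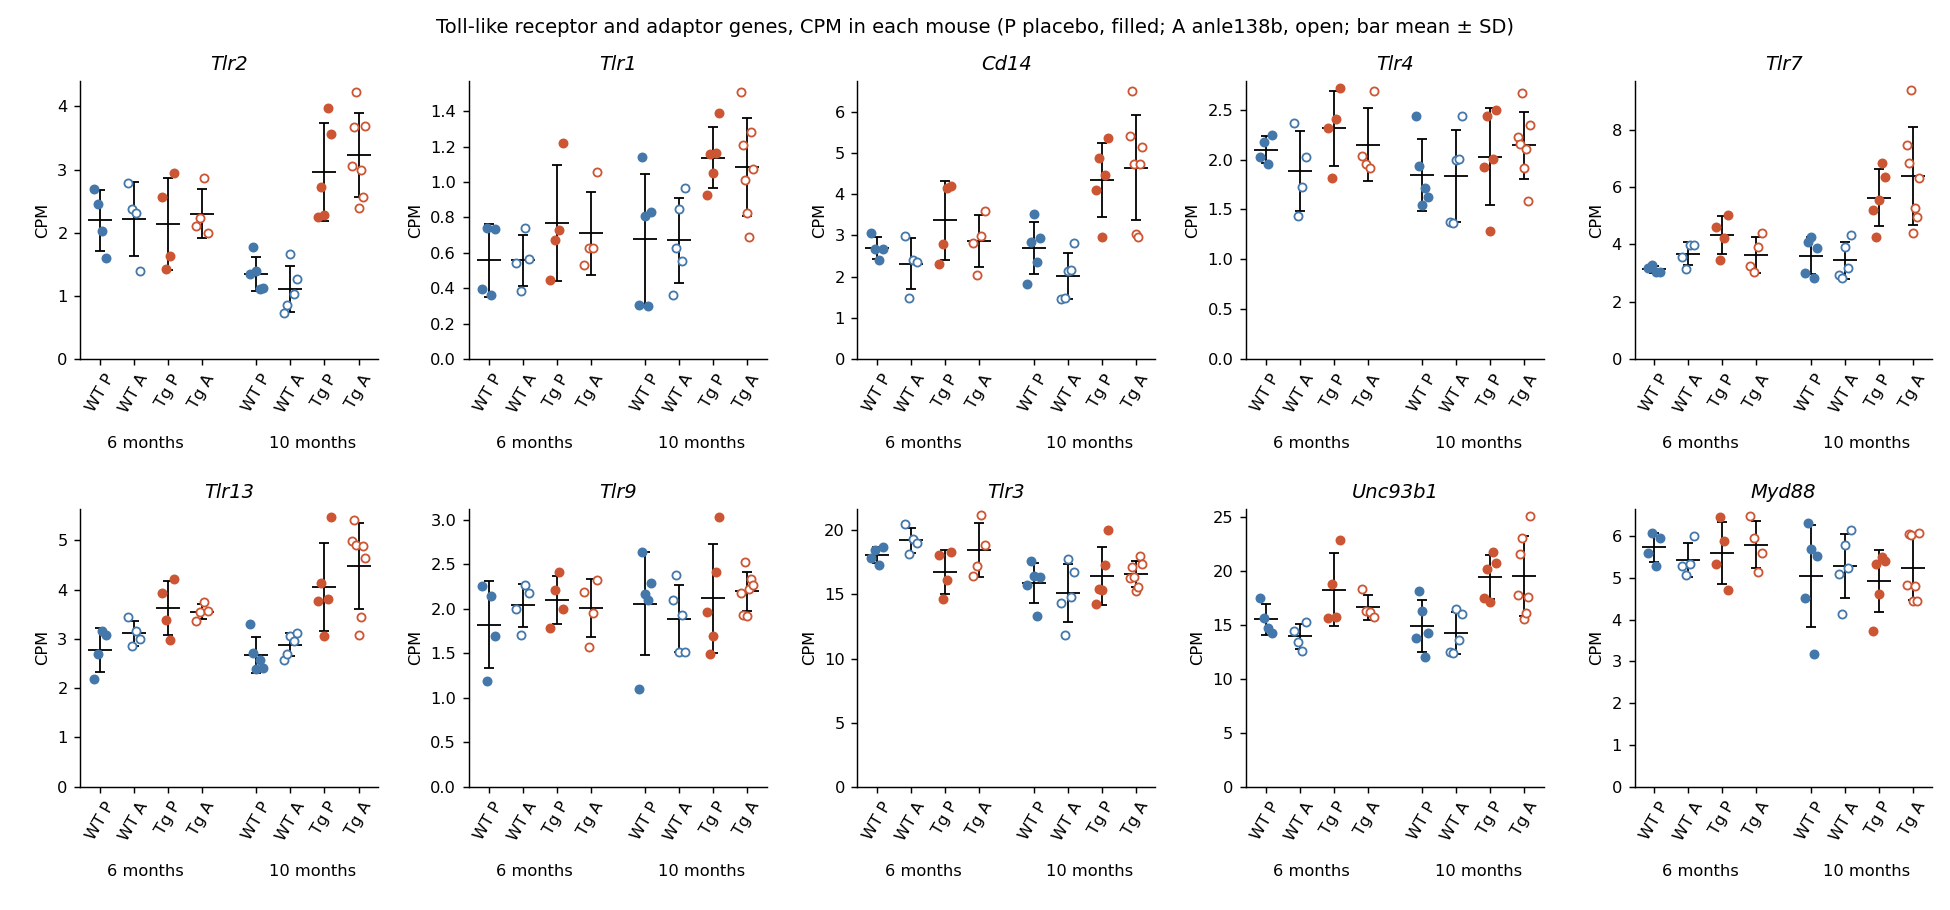
CPM of each of the 10 genes in each mouse (points), by age, genotype (WT blue, APPPS1ΔE9, here Tg, red) and chow (P placebo, filled; A anle138b, open), with the mean and SD of each group. At 10 months Tlr2 of the APPPS1ΔE9 mice (2.25 to 4.23 CPM) sits above that of all WT mice (0.726 to 1.77 CPM), while Myd88 overlaps across all groups.

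Cd14, Tlr7, Tlr13 and Unc93b1 also rose in APPPS1ΔE9 mice at 10 months. With Tlr2 they make 5 of 10 members that passed an adjusted p of 0.1 in the average over both chows, all upward, where 1.43% of all 17668 tested genes passed, 1.32% upward. The median log2 fold change was 0.51 over the 10 members and -0.0044 over all tested genes.

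CD14 presents ligands to TLR4 and TLR2. Cd14 was at 1.83, 2.84, 3.52, 2.35 and 2.95 CPM in placebo-treated WT mice and at 1.45, 1.48, 2.14, 2.17 and 2.82 CPM in anle138b-treated WT mice. Placebo-treated APPPS1ΔE9 mice had 4.10, 4.88, 2.97, 4.46 and 5.36 CPM, and anle138b-treated APPPS1ΔE9 mice 2.95 to 6.50 CPM with a median of 4.73. In 9 of 12 APPPS1ΔE9 mice the level exceeded the highest WT mouse. The log2 fold change of Cd14 was 0.93 ± 0.16 (adjusted p = 0.0012).

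Tlr7 and Tlr13, endosomal receptors for single-stranded RNA and for bacterial ribosomal RNA, both lie on the X chromosome. Tlr7 was at 2.99, 4.10, 4.26, 2.82 and 3.86 CPM in placebo-treated and at 2.94, 2.81, 3.91, 3.19 and 4.33 CPM in anle138b-treated WT mice. In placebo-treated APPPS1ΔE9 mice it was at 5.21, 4.26, 5.53, 6.83 and 6.34 CPM, and in anle138b-treated APPPS1ΔE9 mice at 4.39 to 9.37 CPM with a median of 6.31. Only 1 of 12 APPPS1ΔE9 mice, which was placebo-treated, fell within the WT range, and the log2 fold change was 0.75 ± 0.13 (adjusted p = 0.0017). Tlr13 ranged from 2.39 to 3.29 CPM in WT mice and from 3.06 to 5.48 CPM in APPPS1ΔE9 mice, of which 10 of 12 exceeded every WT mouse. Its log2 fold change was 0.61 ± 0.11 (adjusted p = 0.0024). Since most mice with high Xist were WT, the fit was repeated with the summed level of 4 Y-linked genes as a covariate, and 5 of 10 members passed, against 1.43% of all genes in that fit, Tlr7 and Tlr13 among them, with log2 fold changes of 0.86 and 0.72.

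Unc93b1, the most abundant member per kilobase, ranged from 11.98 to 18.2 CPM in WT and from 15.5 to 25.1 CPM in APPPS1ΔE9 mice. Of the APPPS1ΔE9 mice, 6 of 12 lay above every WT mouse. Its log2 fold change, 0.41 ± 0.09 (adjusted p = 0.019), was the smallest of the 5 that passed.

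The other 5 members did not pass the test at 10 months. Tlr1, the partner of TLR2, had a log2 fold change of 0.69 ± 0.21 with an unadjusted p of 0.0033 and an adjusted p of 0.19 (edgeR), and DESeq2 gave an adjusted p of 0.075. It ranged from 0.300 to 1.14 CPM in WT and from 0.688 to 1.51 CPM in APPPS1ΔE9 mice. Of the 3332 windows of 50 bases in Tlr1 transcripts, 454 also occur in the neighboring paralog Tlr6. Reads within these windows cannot be assigned to 1 gene by sequence, and how such reads were counted is not given. Tlr4, the lipopolysaccharide receptor, differed by 0.17 ± 0.13 (adjusted p = 0.93). Tlr9, which reads unmethylated CpG DNA, differed by 0.11 ± 0.14 (adjusted p = 0.97). Tlr3, which reads double-stranded RNA and signals through TICAM1 in place of MYD88, differed by 0.08 ± 0.07 (adjusted p = 0.95). Myd88 itself differed by -0.04 ± 0.11 (adjusted p = 0.99), with 3.17 to 6.30 CPM in WT and 3.73 to 6.07 CPM in APPPS1ΔE9 mice, so that no APPPS1ΔE9 mouse exceeded the highest WT mouse. The exons of Myd88 share 290 bases with Acaa1a on the opposite strand, a gene with a median of 1203 reads per library, and those of Tlr3 share 381 bases with the antisense gene Gm45542, whose median count was 0. Whether strand was used in counting is not given in the sources used here.

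**Figure D2:**
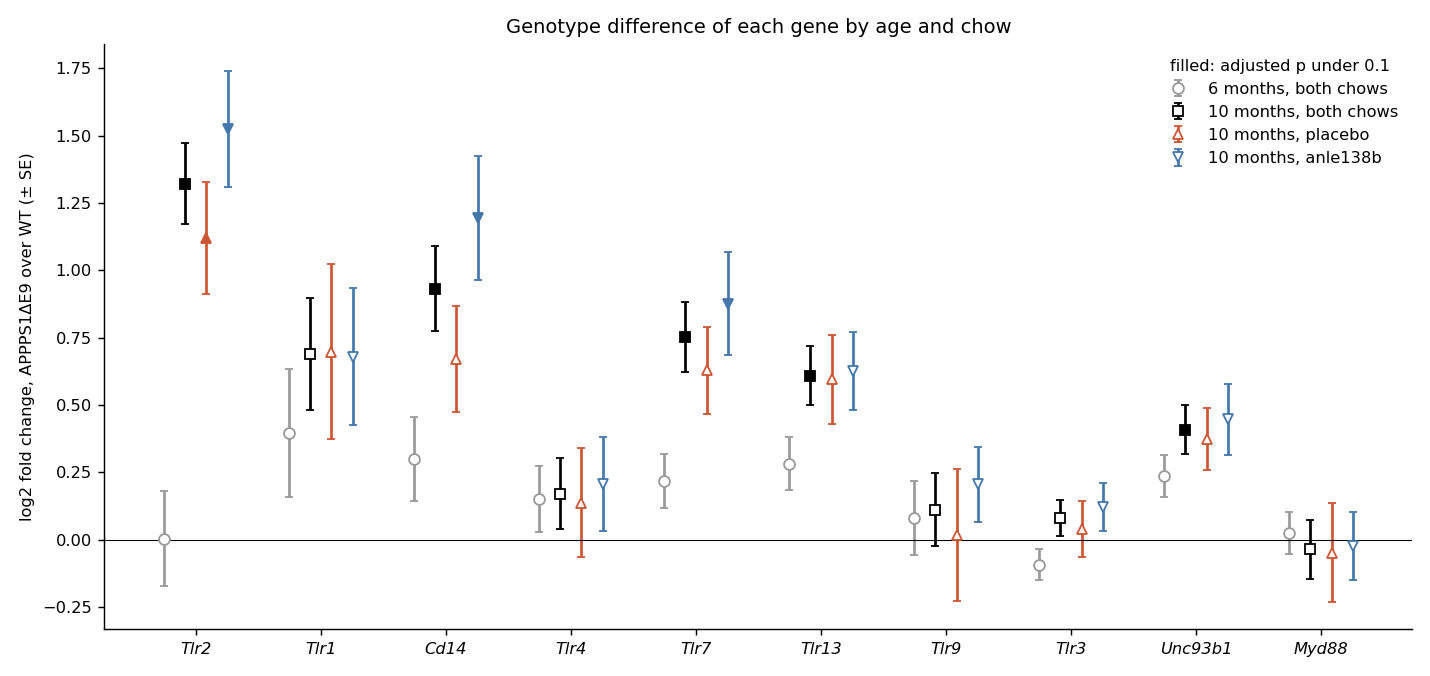
Log2 fold change of APPPS1ΔE9 over WT (± SE) for each gene at 6 months and 10 months averaged over both chows, and at 10 months within each chow. Filled symbols passed an adjusted p of 0.1. At 10 months Tlr2, Cd14, Tlr7, Tlr13 and Unc93b1 passed in the average, and none of the 10 passed at 6 months.

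Within each chow fewer members passed. Among placebo-treated mice at 10 months, 1 of 10 members passed, against 0.324% of 16971 genes. This was Tlr2, with a log2 fold change of 1.12 ± 0.21 (adjusted p = 0.069). At a threshold of 0.05 no member passed, against 0.289% of genes. The call was lost when any of 7 of the 10 mice was left out (placebo-treated APPPS1ΔE9 mice 2, 4 and 5 and placebo-treated WT mice 1, 3, 4 and 5), with adjusted p up to 0.21 and log2 fold changes no lower than 0.99. Without the 9 libraries low in hippocampal markers it was 1.19 ± 0.25 (adjusted p = 0.15). Cd14 (0.67 ± 0.20), Tlr7 (0.63 ± 0.16), Tlr13 (0.60 ± 0.16) and Unc93b1 (0.37 ± 0.11) had unadjusted p of 0.0055, 0.0025, 0.0040 and 0.0076 and adjusted p between 0.36 and 0.61.

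Among anle138b-treated mice at 10 months, 3 of 10 members passed, against 0.723% of 17151 genes. These were Tlr2 (1.53 ± 0.22, adjusted p = 0.0060), Cd14 (1.19 ± 0.23, adjusted p = 0.043) and Tlr7 (0.88 ± 0.19, adjusted p = 0.087). Tlr13, at 0.63 ± 0.14, had an adjusted p of 0.11. Leaving out anle138b-treated WT mouse 1 or mouse 2, the pair with the lowest Tlr2 levels of that group, left only Tlr2 called, with log2 fold changes of 1.41 and 1.45. The call of Tlr7 was lost in 8 of the 12 fits that left out 1 mouse (WT mice 1 to 4 and APPPS1ΔE9 mice 1, 2, 3 and 7), with adjusted p up to 0.30. No member passed without the 9 libraries low in hippocampal markers, a fit in which 0.0344% of genes passed and Tlr2 was at 1.26 ± 0.21 (adjusted p = 0.21), and none passed with the microglial covariate described below (0.0466% of genes).

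The genotype difference was then compared between chows within each age, which is the direct test of whether anle138b changed it. At 10 months no member passed (edgeR), as no gene of 17668 did (0%), and no member had an unadjusted p under 0.05, against 2.3% of genes. The estimates were 0.52 ± 0.31 for Cd14, 0.41 ± 0.30 for Tlr2 and 0.25 ± 0.26 for Tlr7, in the direction of a larger genotype difference under anle138b, and between -0.02 and 0.19 for the other 7 members. DESeq2 called no member at either age, against 0.0113% of genes at 10 months and 0.126% at 6 months. At 6 months again no member and no gene of 17404 passed by edgeR (0%). Tlr7 alone had an unadjusted p under 0.05, at -0.51 ± 0.20 (adjusted p = 0.62, edgeR), where 7.99% of genes did.

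Comparing chows directly within each genotype and age, no member passed in any of the 4 pairs by edgeR or DESeq2, and none had an unadjusted p under 0.05. By DESeq2 at an adjusted p of 0.1, 1.2% of genes passed in APPPS1ΔE9 mice at 6 months and 0% in each other pair. The background by edgeR at an adjusted p of 0.1 was 0% in WT mice at either age, 0.0529% in APPPS1ΔE9 mice at 6 months and 0% in APPPS1ΔE9 mice at 10 months. At the unadjusted level it was 1.85% and 1.25% in WT mice at 6 and 10 months, and 13.1% and 1.48% in APPPS1ΔE9 mice. In APPPS1ΔE9 mice at 10 months the log2 difference of anle138b over placebo lay between -0.06 (Tlr1) and 0.18 (Tlr7), and that of Tlr2 was 0.13 ± 0.19. In WT mice at 10 months it lay between -0.43 ± 0.22 (Cd14, unadjusted p = 0.076) and 0.12 (Tlr13). At 6 months it lay between -0.19 (Cd14) and 0.25 (Tlr7) in WT mice and between -0.27 (Tlr7) and 0.12 (Tlr3) in APPPS1ΔE9 mice. With standard errors of up to 0.38, these samples leave room for differences of that size in either direction.

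In the pre-plaque group, no member passed a genotype test. At 6 months the counts were 0 of 10 among placebo-treated mice (background 0.0715%), 0 of 10 among anle138b-treated mice (0.047%) and 0 of 10 in the average over both chows (0.218%), by edgeR. DESeq2 also called 0 of 10 in each, against backgrounds of 0.829%, 0.276% and 0.942% in the same order. Tlr2 overlapped between genotypes, at 2.70, 2.46, 2.03 and 1.60 CPM in placebo-treated WT mice and 2.56, 1.42, 1.63 and 2.94 CPM in placebo-treated APPPS1ΔE9 mice. Its averaged log2 fold change was 0.00 ± 0.18. In the average, 3 members had an unadjusted p under 0.05, all with higher levels in APPPS1ΔE9 mice: Unc93b1 (0.24 ± 0.08), Tlr13 (0.28 ± 0.10) and Tlr7 (0.22 ± 0.10), with adjusted p from 0.32 to 0.45 (edgeR). A share of 10.7% of all tested genes reached that unadjusted level.

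Tlr2 was also the only member whose genotype difference itself differed between ages. The difference at 10 months exceeded that at 6 months by 1.32 ± 0.24 on the log2 scale (edgeR over all 38 mice, adjusted p = 0.012), where 0.176% of 18232 genes passed. It passed in all 38 fits that left out a single mouse, with adjusted p of at most 0.041, but not without the libraries rich in choroid plexus or those low in hippocampal markers, whose values follow. Tlr7 (0.54 ± 0.17), Cd14 (0.64 ± 0.23) and Tlr13 (0.33 ± 0.15) had unadjusted p of 0.0042, 0.0099 and 0.034 and adjusted p of 0.38, 0.47 and 0.64.

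The levels behind that contrast were as follows. WT mice had 1.39 to 2.78 CPM at 6 months and 0.726 to 1.77 CPM at 10 months, while APPPS1ΔE9 mice had 1.42 to 2.94 and 2.25 to 4.23 CPM. Choroid plexus content differed between the ages as well. At 6 months the 6 WT libraries with a plexus marker sum above 1000 CPM had 2.03 to 2.78 CPM of Tlr2, and the 2 without had 1.39 and 1.60 CPM. Among APPPS1ΔE9 libraries of that age the 4 with plexus had 2.11 to 2.87 and the 4 without 1.42 to 2.94 CPM. With the plexus sum as a covariate the age difference of Tlr2 was 1.19 (adjusted p = 0.011). Without the 11 libraries rich in plexus it was 0.92 ± 0.38 and did not pass, as no gene of 19033 did (unadjusted p = 0.025, edgeR). That fit had 2 WT and 4 APPPS1ΔE9 mice at 6 months, with single mice in 3 of the groups assumed to vary like the others, and the genotype difference of Tlr2 at 6 months alone was then 0.41 ± 0.35. At 10 months alone the same 5 members passed without the 1 plexus-rich library, against 1.51% of 17634 genes. Without the 9 post-plaque libraries low in hippocampal markers the age difference of Tlr2 was 1.22 ± 0.26 with an adjusted p of 0.19. Age is also a difference of cohort, so the 2 cannot be told apart.

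**Figure D3:**
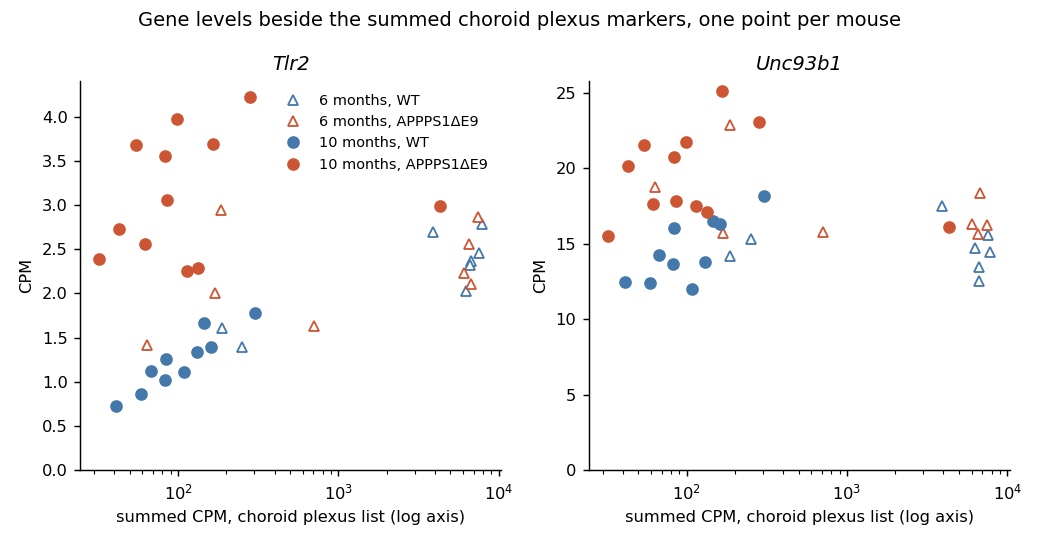
CPM of Tlr2 and Unc93b1 in each mouse against the summed CPM of 5 choroid plexus markers (log axis), by age and genotype. At 6 months the 4 lowest Tlr2 levels (1.39 to 1.63 CPM) are in libraries with a low plexus sum, and at 10 months, where 21 of 22 libraries have a low sum, the APPPS1ΔE9 mice sit above the WT mice.

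Microglial markers were higher in the same mice. At 10 months all 10 homeostatic microglia markers had a higher mean in APPPS1ΔE9 mice, and their summed level was 336 to 431 CPM in WT and 425 to 643 CPM in APPPS1ΔE9 mice, a log2 ratio of means of 0.46. The 10 markers of plaque-associated microglia, none of which is a member, summed to 130 to 176 CPM in WT and 218 to 371 CPM in APPPS1ΔE9 mice, a log2 ratio of 0.85. More microglia and more RNA per microglial cell cannot be told apart in tissue of this kind. With the homeostatic sum as a covariate, Tlr2 was higher in APPPS1ΔE9 mice by 0.70 ± 0.17 (adjusted p = 0.057). Under that covariate Cd14 was at 0.21 ± 0.18, Tlr13 at 0.20 ± 0.15, Tlr7 at 0.12 ± 0.13 and Unc93b1 at 0.00 ± 0.10, none of which passed, and Myd88 was lower at -0.42 ± 0.15 (adjusted p = 0.095). These 2 calls among 10 members stand against 14.4% of all genes called in that fit. The covariate itself is nearly separated by genotype, so the fit rests on little overlap. Neutrophil and monocyte markers summed to 0.556 to 1.89 CPM in WT and 0.405 to 3.72 CPM in APPPS1ΔE9 mice, with 4 of 8 markers at a median under 0.1 CPM and 5 of 8 higher on average in APPPS1ΔE9 mice. Border macrophage markers summed to 6.95 to 23.2 and 6.35 to 17.9 CPM, with 2 of 8 higher on average in APPPS1ΔE9 mice. Reactive astrocyte markers summed to 111 to 190 and 136 to 297 CPM, with 5 of 8 higher, and red blood cell markers to 23.9 to 51.9 and 33.1 to 115 CPM, with 5 of 5 higher. The part of these cells in the results was not tested.

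**Figure D4:**
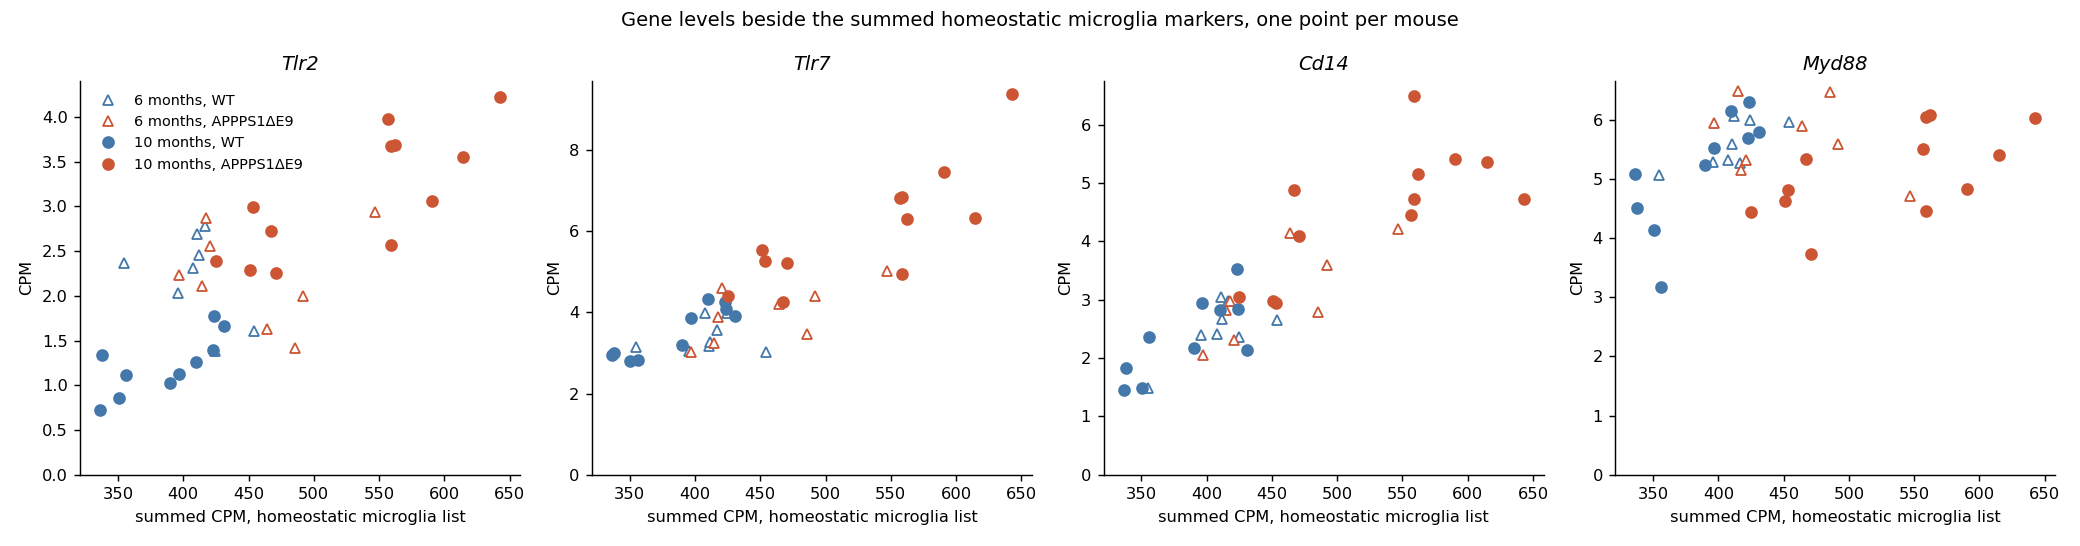
CPM of Tlr2, Tlr7, Cd14 and Myd88 in each mouse against the summed CPM of 10 homeostatic microglia markers, by age and genotype. At 10 months the sum reaches 431 CPM in WT and 643 CPM in APPPS1ΔE9 mice, every APPPS1ΔE9 mouse lies above every WT mouse in Tlr2, and none lies above the highest WT mouse in Myd88.

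The split into libraries with many and few hippocampal transcripts was checked in the same way. Without the 9 libraries low in hippocampal markers, 3 members passed in the average at 10 months, against 0.936% of all genes: Tlr2 (1.23, adjusted p = 0.0030), Tlr7 (0.69, adjusted p = 0.023) and Tlr13 (0.66, adjusted p = 0.071). Cd14 was at 0.73 ± 0.19 (adjusted p = 0.15) and Unc93b1 0.32 ± 0.11 (adjusted p = 0.37). With the hippocampal sum as a covariate, 6 members passed, against 2.18% of all genes, Tlr1 being the addition at 0.66 ± 0.16 (adjusted p = 0.029).

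Of 77 further genes of Toll-like receptor signaling, 65 were tested at 10 months, and 9 rose and 0 fell in APPPS1ΔE9 mice, where 1.43% of all genes passed. Their median log2 fold change was 0.06. Without the 9 libraries low in hippocampal markers, 8 of 66 tested rose, against 0.936% of all genes passing. With the homeostatic microglia sum as a covariate, 8 of 65 rose and 1 fell, against 14.4% of all genes called in that fit. Among receptors and co-receptors, Cd180 and Ly86, which encode the TLR4-like receptor RP105 and its partner MD-1, rose by 1.13 ± 0.13 and 0.87 ± 0.08. In every APPPS1ΔE9 mouse both were above every WT mouse: Cd180 at 4.77 to 9.24 against 2.44 to 3.71 CPM, and Ly86 at 17.3 to 25.3 against 9.54 to 13.7 CPM. The pathway genes Irf8, Ccl3 and Ccl4 showed this pattern too, as did 0.396% of the 17668 tested genes. By contrast Ly96, which encodes the MD-2 partner of TLR4, was at -0.04 ± 0.13 (adjusted p = 0.99).

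Adaptors and trafficking genes contributed Ticam2 and Lgmn. Ticam2, the bridging adaptor of internalized TLR4, rose by 0.98 ± 0.20 from low levels, 0.236 to 0.581 CPM in WT and 0.331 to 1.10 CPM in APPPS1ΔE9 mice. Lgmn, an endosomal protease that processes nucleic acid receptors, rose by 0.22 ± 0.04. The adaptors Ticam1 (0.04 ± 0.07) and Tirap (0.10 ± 0.13) did not pass. Of 18 kinases and ligases only Btk passed, at 0.62 ± 0.10, and Irak4 was at 0.06 ± 0.08.

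Among 10 transcription factors, Irf8 (0.92 ± 0.09) and Irf5 (0.52 ± 0.08) rose, both interferon regulatory factors of myeloid cells. Irf8 was at 6.71 to 12.4 CPM in APPPS1ΔE9 mice and at 4.18 to 6.16 CPM in WT mice. None of 10 inhibitors passed by edgeR, Nfkbia being at -0.16 ± 0.09 and Tnfaip3 at 0.00 ± 0.14. Of 19 listed target genes 9 were tested, and the chemokine genes Ccl3 and Ccl4 rose by 2.92 ± 0.30 and 3.27 ± 0.32. Ccl3 was at 1.09 to 3.84 CPM against 0.0781 to 0.630 CPM, and Ccl4 at 0.404 to 1.64 against 0 to 0.166 CPM. All 9 calls had adjusted p of at most 0.011.

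**Figure D5:**
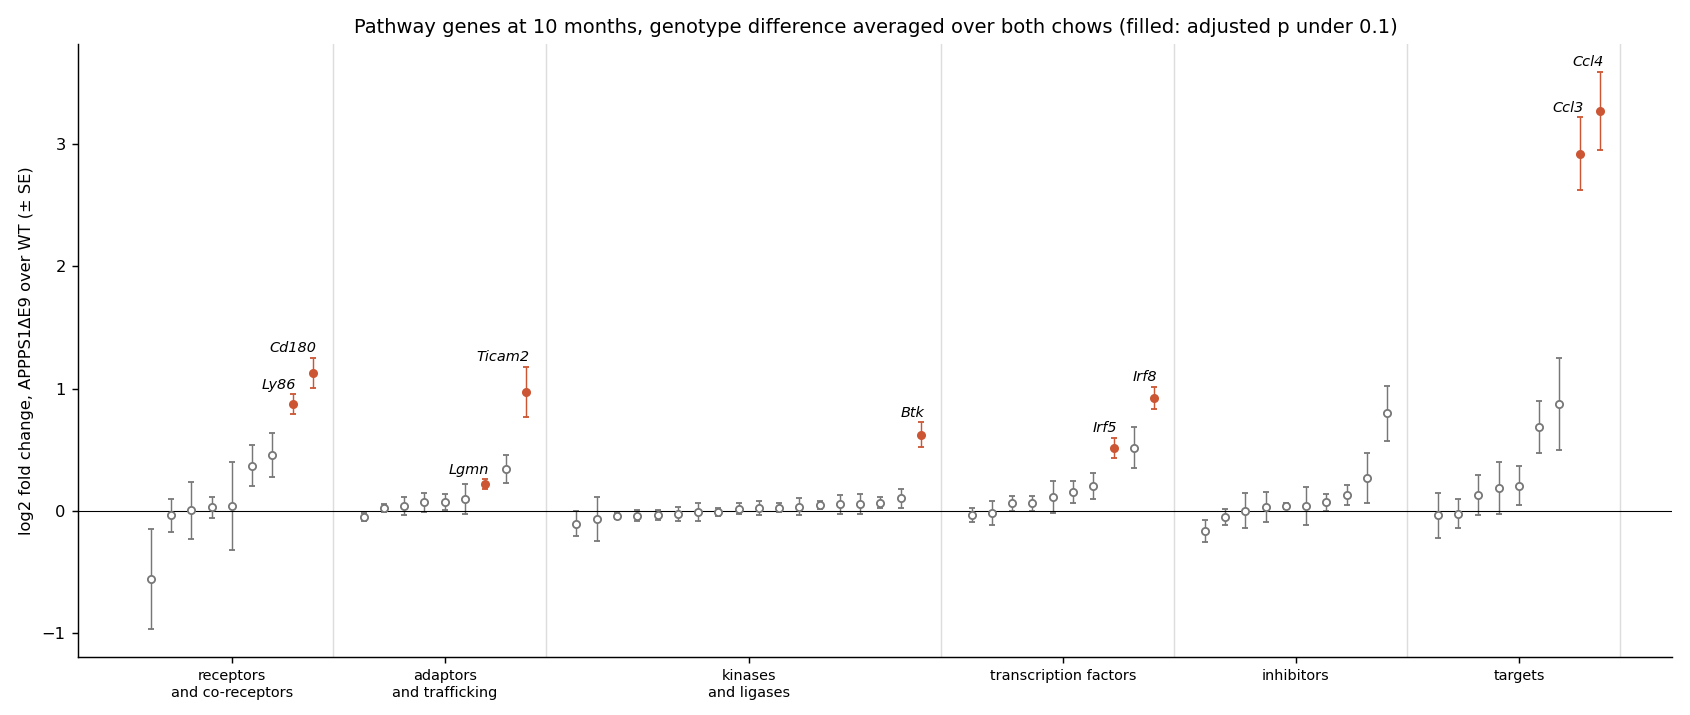
Log2 fold change of APPPS1ΔE9 over WT (± SE) at 10 months, averaged over both chows, for the 65 tested genes of the pathway list, by role. The 9 filled genes passed an adjusted p of 0.1 and all lie above 0; Ccl3 and Ccl4, at 2.92 and 3.27, lie highest.

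At 6 months 1 of 64 tested pathway genes passed in the average, Ccl3, at 1.54 ± 0.24 (adjusted p = 0.010), where 0.218% of all genes passed. No pathway gene passed with the Y-linked covariate (0.0402% of all genes) or with the microglial covariate (0.144%). Calls without the libraries rich in choroid plexus are not counted, as single mice were left in some groups. Ccl3 was at 0.377 to 1.81 CPM in APPPS1ΔE9 and 0.220 to 0.507 CPM in WT mice, with 7 of 8 APPPS1ΔE9 mice above every WT mouse. The genotype difference was larger at 10 than at 6 months for Ly86, Btk, Irf8 and Ccl4, by 0.66 ± 0.13, 0.65 ± 0.14, 0.61 ± 0.14 and 2.31 ± 0.54 (adjusted p from 0.037 to 0.083), 4 of 65 pathway genes against 0.176% of all genes. Of the pathway genes, 1 passed at a threshold of 0.05, against 0.0603% of all genes. None passed without the 9 libraries low in hippocampal markers (0.0162% of all genes) or with the microglial covariate (0.121%). The fit without the 11 libraries rich in choroid plexus left single mice in some groups, so its calls are not counted. For Ccl3 the same contrast gave 1.38 ± 0.43 (adjusted p = 0.34).

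Within groups, mice also varied in these genes, and some members varied together. After the group means were removed from log2 CPM, Pearson's r over 38 mice, which share library depth and tissue content, was 0.67 between Tlr1 and Cd14, 0.66 between Myd88 and Unc93b1, 0.64 between Tlr2 and Tlr3 and -0.15 between Tlr4 and Tlr9. The genes most like Unc93b1 in this measure were C1qc (0.88), C1qa (0.86) and H2-D1 (0.86), and those most like Cd14 were Vsir (0.83), Tyrobp (0.82) and C1qa (0.81). Tlr2 was most like Gsn (0.82), Apobec1 (0.80) and Stxbp3 (0.79), and Tlr7 most like Rida (0.86), Ighm (0.84) and Peli2 (0.83). Tlr1 was most like Hhex (0.79), Tlr13 most like Anxa3 (0.74) and Tlr4 most like Fcgr2b (0.76). Myd88 was most like Neurod2 (0.80), Tlr3 most like Sncaip (0.78) and Tlr9 most like L3mbtl2 (0.71).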

How the data were processed

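Hippocampal mRNA was sequenced from 38 mice (TruSeq libraries). Per the labels and the study's methods, the authors mapped reads to mm10 with STAR and deposited raw read counts per Ensembl gene from HTSeq; strandedness is not given in the sources used here. Of 48709 gene IDs, 48349 matched GENCODE M21, which gave symbols and exon lengths. Groups came from the titles.

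From these counts, CPM (TMM-scaled) and RPKM were computed. Each pair of groups was fitted by itself with edgeR 4.0.16 in R 4.3.3 (filterByExpr with a minimum count of 10, robust quasi-likelihood test), and the averages over chows, the interactions and the difference between ages were contrasts of 4 or 8 groups. Values were adjusted over all tested genes by Benjamini-Hochberg with a threshold of 0.1, and 0.05 as an alternative. SEs were derived from each log2 fold change and its F statistic. Alternatives were DESeq2 1.42.0, RLE size factors, no filter, 4 groups in one fit, Y-linked expression as covariate, the replicate number as a block and leaving out each mouse. Covariates for tissue content and the fits without 9 or without 11 libraries were added after seeing the data. The test was checked on simulated counts. Of genes set to a log2 change of 0.6, it found 151 of 195 in the average at 10 months, with 11 false calls. In placebo-treated mice it found 103 of 194 at 10 months and 125 of 198 at 6 months, with 11 and 14 false calls. At a log2 change of 1 it found 176 of 197, 167 of 199 and 168 of 197 in the same order. No pair of replicate libraries agreed within sampling noise (lowest chi-square per degree of freedom 3.17). The labels do not tie libraries to litters, and p-values measure the spread between these mice.

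The 10 members, the pathway list and the marker lists were chosen with earlier results of these data known. Genes named are the members, pathway genes that passed or that represent a role, and for each member the genes with the highest residual correlation. Beyond that rule, the pathway genes Ly96, Ticam1, Tirap, Irak4, Nfkbia, Tnfaip3 and the other receptors were named after their values were seen.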

Additional observations from a re-analysis of the deposited data

Results flagged for a closer look

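A pair of results stood out by fixed rules. Tlr4 in anle138b-treated APPPS1ΔE9 mouse 4 of the pre-plaque group was 2.69 CPM, far from the other 3 mice of its group at 1.91 to 2.04 CPM, a gap that was 0.84 of the group's range (Dixon's test). It was 1 of 80 combinations of gene and group examined, of which chance flags about 1 in 20. Plexus markers were low in this library, in contrast to the rest of its group, and their part in the value was not tested. The genotype difference of Tlr2 was larger at 10 than at 6 months by 1.32 on the log2 scale, by a test of the difference itself (edgeR, adjusted p = 0.012). Without the 11 libraries rich in choroid plexus markers it was 0.92 and did not pass.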

How the results depend on the processing

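The number of members called stayed within 1.5 times its value in 181 of 190 alternatives that left out 1 mouse and in 121 of 137 others. These totals include the 9 comparisons without a call, where 0 stayed 0, so they say little of the calls. With 1 mouse left out, Tlr2 was called in 3 of 10 fits among placebo-treated mice at 10 months. Among anle138b-treated mice of that age Tlr2 was called in 12 of 12 such fits, Cd14 in 10 and Tlr7 in 4. All 9 comparisons without a call had no call under any setting run. For placebo-treated mice at 10 months 1 member was called, against 0.324% of all genes. The count was 0 at a threshold of 0.05 (0.289% of genes), with the Y-linked covariate (0.0884%) and with the choroid plexus covariate (0.194%). It was also 0 without the 9 libraries low in hippocampal markers (0.299%). DESeq2 gave 2 (0.636%), the hippocampal covariate 3 (0.76%), and fits that left out a mouse 0 to 1. For anle138b-treated mice at 10 months 3 members were called (0.723% of genes). The count was 5 with the Y-linked covariate (1.55%), 0 with the microglia covariate (0.0466%) and 0 without the 9 libraries (0.0344%). It was 1 to 4 when a mouse was left out. For the average at 10 months 5 members were called (1.43% of genes). The count was 2 with the microglia covariate (14.4%), 3 without the 9 libraries (0.936%), and 5 to 6 when a mouse was left out. For the difference between ages 1 member was called (0.176% of genes). The count was 0 with the microglia covariate (0.121%) and 0 without the 9 libraries (0.0162%). The fit without the 11 libraries rich in choroid plexus left single mice in some groups, so its calls are not counted here. Without the 9 or the 11 libraries fewer mice were fitted, and for the other settings the cause was not tested. Tlr9 among placebo-treated mice at 10 months turned from 0.02 to -0.82 with the microglia covariate (adjusted p = 0.094). It was the only call among members in that fit, in which 10.8% of all genes were called and Tlr2 was at 0.52 (adjusted p = 0.22).

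The replicate numbers were not taken to pair mice, but correlations of deviations between same-numbered mice cannot exclude a pairing. Their mean lay between -0.22 (chow in APPPS1ΔE9 mice at 10 months) and 0.31 (chow in WT mice at 10 months). In each of the 8 pairs of groups at least 1 was negative. The same number was the closest match for 3 of 4 mice between chows in WT at 6 months and for 0 of 5 in APPPS1ΔE9 at 10 months. With the number as a replicate block, 0 members were called among placebo-treated mice at 10 months, against 0.147% of all genes. Among anle138b-treated mice 1 was called (0.117% of genes), and no other count of members called changed. For the difference between ages 1 pathway gene was called with the block (0.0548% of genes), against 4 without it (0.176%). Without length scaling Tlr3 ranks above Unc93b1 in CPM. Counts as low as 5 reads limit Tlr1.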

Other observations

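Other receptors of the family were near the limit of counting in this tissue. Tlr11 was at 0 to 0.0839 CPM and Tlr8 at 0 to 0.305 CPM at 10 months, and neither was tested in the average at that age. Tlr5, the flagellin receptor, had 0.249 to 0.906 CPM in WT and 0.286 to 0.852 CPM in APPPS1ΔE9 mice (log2 fold change 0.01 ± 0.23, adjusted p = 0.999). Tlr6, the alternative partner of TLR2, had 0.355 to 0.996 CPM in WT and 0.607 to 1.31 CPM in APPPS1ΔE9 mice, with a log2 fold change of 0.46 ± 0.18 (unadjusted p = 0.019, adjusted p = 0.50). Tlr12, which recognizes profilin, had 0.463 to 1.40 and 0.823 to 1.88 CPM, with 0.37 ± 0.17 (unadjusted p = 0.036, adjusted p = 0.65).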
